A study of Homo sapiens with 15 samples.

Results

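The comparison described here set 3 libraries of K562 cells exposed for 24 h to 1 µM martinostat, the highest concentration of the study, against 3 libraries of untreated K562 cells. These 6 libraries were taken by their labels from 15, and the other 9 held cells given lower doses (0.5, 0.25 or 0.15 µM) for the same time. K562 is an established line with erythroid features, grown from a human chronic myeloid leukemia, and it carries the BCR-ABL fusion kinase that imatinib inhibits. Every group was labeled as this line with no other agent or alteration, and the labels call the replicates biological. The sources did not say whether untreated cells received the solvent of the compound, so the compound and its solvent cannot be told apart.

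Martinostat is a hydroxamate inhibitor of histone deacetylases (HDACs). These enzymes remove acetyl groups from histone tails and from other proteins, and acetylated histones are bound by bromodomain proteins that recruit the elongation machinery of RNA polymerase II. Inhibitors of these enzymes are known to induce the cell cycle inhibitor p21 (*CDKN1A*) and to open silent genes, and they are also known to lower many highly transcribed genes, including those that hold a cell in its lineage. In an erythroleukemia line, that lineage is maintained by GATA1, KLF1 and their partners.

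The files held read counts per gene. The untreated libraries summed to between 29555379 and 32805574 counts and the 1 µM libraries to between 27598821 and 28441402. A count was found for 25887 to 26257 genes in the untreated libraries and for 33296 to 33901 genes at 1 µM, although the latter were shallower. Replicate 2 at 1 µM stood somewhat apart: its counts differed from those of replicates 1 and 3 with a chi-square per degree of freedom of 38.3 and 44.9, against 6.49 between these 2 and 9.32 to 12.8 among the untreated libraries. Ribosomal protein genes took 9.55% of its counts and 7.36% to 7.87% in the other 5 libraries. Of 8 markers of K562 cells, 7 were above 1 CPM in both groups, and their summed level was 3527 to 3819 CPM in the untreated libraries and 799 to 1019 CPM at 1 µM. CPM are counts divided by the scaled size of the library, a unit for comparing a gene between libraries and not genes with each other. Because these were bulk samples, fewer cells of a kind and less RNA per cell cannot be told apart.

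Most of the measured transcriptome differed between the groups. Of 23711 genes tested with edgeR's quasi-likelihood test, 15707 (66.2%) passed an adjusted p (Benjamini-Hochberg) of 0.05 and are named called here, 9193 of them higher at 1 µM (38.8% of those tested) and 6514 lower (27.5%). A change over 2-fold was called for 12242 genes (51.6%), 7894 of them in the higher direction (33.3%) and 4348 in the lower direction (18.3%). A log2 fold change over 2 was called for 5898 genes (24.9%) and one under -2 for 1478 (6.23%), and over 4 and under -4 for 3146 (13.3%) and 147 (0.62%). The 3 libraries of the groups did not overlap in 17761 genes (74.9%). With library totals in place of the scaling used, the 58.5% of calls that were in the higher direction became 69.3%, and with scaling factors taken from genes of at least 10 CPM they became 70.1%, while the median log2 fold change over all genes went from 0.32 to 0.67 and 0.70. With at least 10 counts required in every library, 14096 genes were tested. Of their calls 51.6% were in the higher direction, and their median was 0.05. Directions are therefore relative to the scaling for genes with small changes, and the excess of higher calls depended on the filter.

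The direction of change went with the level of the gene. Among 7355 genes averaging under 1 CPM, 3200 were called higher and 503 lower. Among 2379 genes over 100 CPM the order turned, with 460 higher and 1275 lower. Levels here are means over all 15 libraries. Genes near 0 in untreated cells had little room to fall and could pass the filter through treated libraries alone. The excess of higher calls at low levels is therefore partly set by the filter. In all, 26.5% of the 10128 genes averaging at least 10 CPM were called higher and 48.4% were called lower, and their median log2 fold change was -0.39. With library totals the median over all genes tested rose from 0.32 to 0.67, a shift of similar size to this median. The excess of lower calls at high levels is therefore also relative to the scaling. Of 5055 long non-coding RNA (lncRNA) genes tested, 2086 were called higher and 650 lower, and of 15640 protein-coding genes 6279 and 5376. The share of counts on lncRNA genes was 1.45% to 1.61% in the untreated libraries and 4.30% to 4.50% at 1 µM. *MALAT1* alone went from a mean of 0.295% to 2.43%, so most of that gain lay in this gene.

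**Figure D1:**
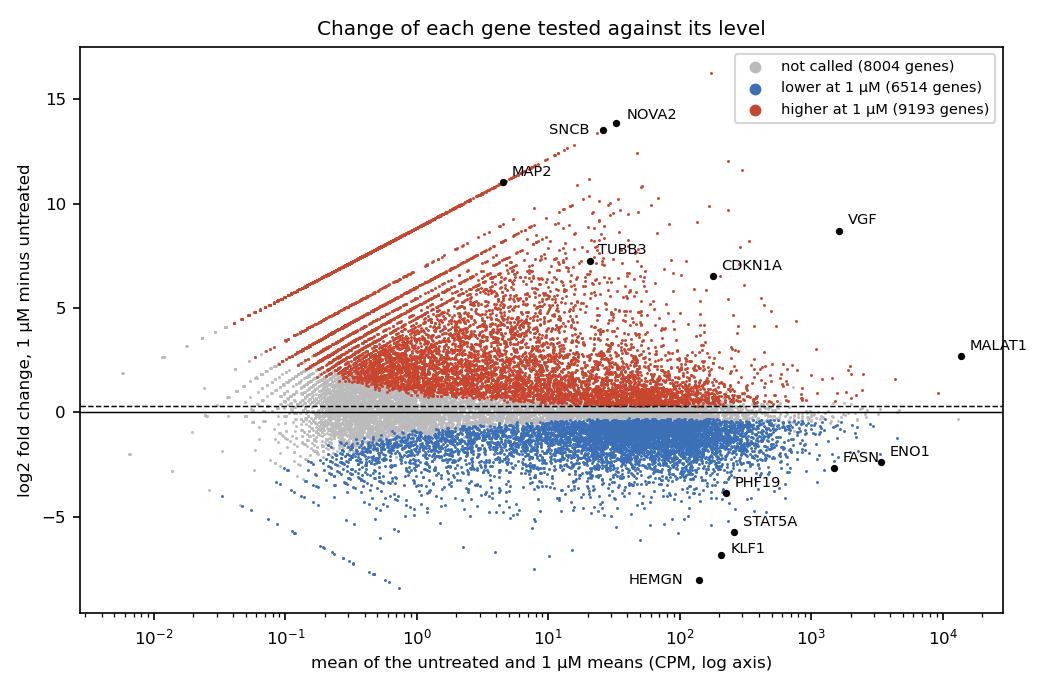
Log2 fold change (1 µM minus untreated, y axis) of the 23711 genes tested against the mean of both group means in CPM (x axis, log scale), with called genes in red (higher) and blue (lower), the rest in grey, the dashed line at the median of 0.32 and 13 genes labeled. Under the scaling used, genes with low levels lie mostly above the zero line and genes over 100 CPM mostly below it. The parallel lines at the upper left are genes with few or no counts in the untreated libraries.

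The 10 genes that moved the largest shares of the counts were EEF2, FTL, FLNA, VGF and MALAT1, which gained, and ENO1, HSPA8, HSP90AB1, NPM1 and FASN, which lost. *MALAT1*, a nuclear lncRNA, went from 0.295% to 2.43% of all counts. Its exons lie to 83.7% under a gene on the opposite strand, and no source used here says whether counting used the strand. *EEF2*, a translation elongation factor, went from 0.508% to 1.23%. *FTL*, the ferritin light chain that stores iron, went from 0.174% to 0.671%, and its level of 9653 CPM in replicate 2 lay far above 5354 and 4715 CPM in the other 1 µM libraries. *FLNA*, an actin cross-linker, reached 0.393%. On the losing side were the glycolytic enzyme *ENO1*, which fell from 0.458% to 0.113%, and the chaperone *HSPA8*, which fell from 0.429% to 0.136%. The chaperone *HSP90AB1* fell from 0.500% to 0.273%, the nucleolar protein gene *NPM1* from 0.287% to 0.100% and the fatty acid synthase gene *FASN* from 0.206% to 0.0411%. All 10 were called in the direction of their share.

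**Figure D2:**
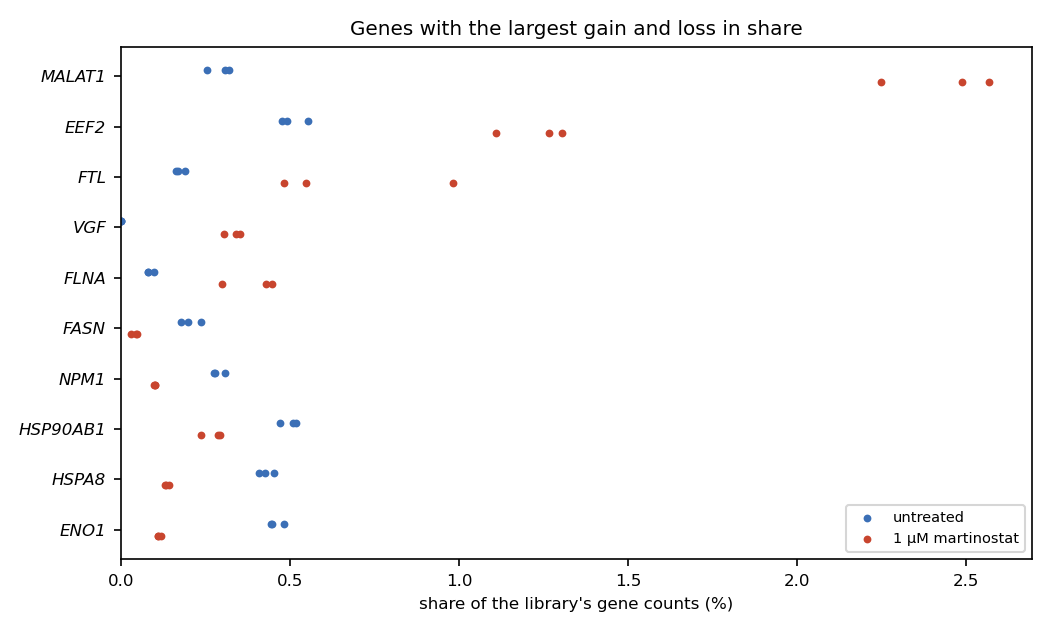
Share of the library's gene counts (x axis, percent) for the 5 genes with the largest gain and the 5 with the largest loss, 1 point per library. In each of the 10 genes the 3 points at 1 µM lie apart from the 3 untreated points, and *MALAT1* lies above 2% at 1 µM.

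*VGF*, a secreted neuropeptide precursor of neurons and endocrine cells, was the remaining gene to gain (chromosome 7, 101162509 to 101165569, minus strand). Its level was 7.24, 7.15 and 9.04 CPM in the untreated libraries and 3343, 2993 and 3447 CPM at 1 µM. Every treated library was far above every untreated one, with a log2 fold change of 8.71 (SE 0.35, adjusted p = 3.3e-13). The 250 bases before its start held 1 cyclic AMP response element (TGACGTCA), 79 bases before the start, in capitals here (RefSeq, GRCh38.p14, minus strand, chr7:101165570-101165819).
VGF: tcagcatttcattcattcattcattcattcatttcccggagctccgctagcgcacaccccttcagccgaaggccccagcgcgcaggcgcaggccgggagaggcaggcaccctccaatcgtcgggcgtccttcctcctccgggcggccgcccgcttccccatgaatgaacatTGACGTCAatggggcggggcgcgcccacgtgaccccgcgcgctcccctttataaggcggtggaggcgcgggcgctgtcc
That element was present on either strand in 1.98% of 27305 RefSeq promoters of 300 bases (250 before to 50 after the start), in 3.00% of the 14021 promoters of genes tested and in 2.43% of the 4520 promoters of genes called over 2-fold higher. A match describes the letters and not a bound factor.

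Many genes without a count in untreated cells had counts at 1 µM, and the reverse was rare. In the whole table, 29282 genes had no count in the 3 untreated libraries, 3055 of these had a count in every 1 µM library, and 491 reached a mean of at least 1 CPM there, 368 of them protein-coding. Conversely, 20398 genes had no count in the 3 libraries at 1 µM, 139 of these had a count in every untreated library, and 3 had reached 1 CPM, none of them protein-coding. Among silent genes that reached 10 CPM, 32 were protein-coding and 6 were lncRNA genes, against 0 genes in the reverse direction.

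The 8 protein-coding genes with the highest log2 fold change (of those with at least 10 CPM and no overlap) had 0 counts in all untreated libraries, so a bound is given against 3 counts over the untreated group. *NOVA2*, a splicing regulator of neurons, had 66.3, 55.8 and 74.3 CPM at 1 µM, at least 1656-fold higher. *SNCB*, which encodes the presynaptic protein beta-synuclein, had 48.8, 56.3 and 50.5 CPM, at least 1312-fold higher. *ALPG*, a placental-type alkaline phosphatase of germ cells, had 66.2, 61.0 and 63.9 CPM, at least 1611-fold higher. The other 5 were *DISP3*, *SLC45A1*, *PRR20G*, the metallothionein gene *MT1G* and *DNER*, a ligand of the Notch pathway, with lower bounds from 599-fold to 1188-fold.

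Among lncRNA genes, the highest log2 fold change belonged to *MIR7-3HG* (chromosome 19, 4769031 to 4785077, plus strand), the host transcript of a microRNA-7 precursor. It had 0 counts in the untreated libraries and 373, 377 and 282 CPM at 1 µM, at least 8706-fold higher. The microRNA itself was not measured by these libraries. Its mature form, with the seed (bases 2 to 8) in capitals, is shown because it is the known product of this transcript (RefSeq, GRCh38.p14, chr19:4770700-4770723, plus strand).
hsa-miR-7-5p: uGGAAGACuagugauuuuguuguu
On the falling side *PCAT14* (chromosome 22, 23536881 to 23547797, plus strand), an lncRNA first described in prostate cancer, had 18.4, 19.0 and 22.3 CPM in the untreated libraries and 0.284, 0 and 0.209 CPM at 1 µM. The other 6 lncRNA genes at the 2 ends had no symbol.

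Erythroid genes were among the deepest losses. Of 34 genes tested, 29 were called lower and 2 higher, with a median log2 fold change of -1.98. With library totals 24 were lower and 3 higher, with a median of -1.63. Over all genes tested, 27.5% were called lower and 38.8% higher with a median of 0.32, and these values are the background for the counts of every list. The transcription factors fell together. *KLF1*, the erythroid Krüppel-like factor (chromosome 19, 12884422 to 12887201, minus strand), had 439, 377 and 404 CPM in the untreated libraries and 3.44, 4.08 and 3.21 CPM at 1 µM, with a log2 fold change of -6.83 (SE 0.26, adjusted p = 1.4e-13). *GATA1*, the master regulator of the lineage (chromosome X, 48786540 to 48794311, plus strand), had 326, 335 and 323 CPM in the untreated libraries and 15.3, 20.8 and 20.5 CPM at 1 µM, with a log2 fold change of -4.12 (SE 0.17, adjusted p = 4.6e-13). No untreated library came near a treated one in either gene. Their partners *LMO2* (log2 -5.09), *GFI1B* (-5.32), *NFE2* (-3.93) and *TAL1* (-2.28) were also called lower, and *ZFPM1*, the GATA1 cofactor FOG1, changed less (log2 -0.72).

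The 250 bases before the start of *KLF1* are shown because this gene is itself a known target of GATA factors. They held 1 match to AGATAA or TGATAA, which appears in capitals as its reverse complement, 66 bases before the start (RefSeq, GRCh38.p14, minus strand, chr19:12887202-12887451).
KLF1: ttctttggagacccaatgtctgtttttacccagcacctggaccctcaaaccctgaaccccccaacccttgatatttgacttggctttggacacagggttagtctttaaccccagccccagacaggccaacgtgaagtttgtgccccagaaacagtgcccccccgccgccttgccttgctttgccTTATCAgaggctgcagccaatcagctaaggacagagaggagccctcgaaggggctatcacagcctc
Either form was found in 11 of the 21 erythroid promoters matched by symbol (52.4%) and in 16.6% of all 27305 promoters. It was found in 10.0% of the 14021 promoters of genes tested and in 9.77% of the 2958 promoters of genes called over 2-fold lower, so the lower genes as a whole were close to the genes tested.

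*HEMGN*, hemogen, a nuclear protein of erythroid precursors (chromosome 9, 97926791 to 97944856, minus strand), had the lowest log2 fold change of the protein-coding genes named. Its level was 246, 316 and 276 CPM in the untreated libraries and 1.31, 1.17 and 0.767 CPM at 1 µM, with a log2 fold change of -8.0 (SE 0.24, adjusted p = 1.1e-14). Surface genes followed, with log2 fold changes of -5.21 for *GYPC*, -3.45 for *GYPB* and -4.61 for *RHAG*. *GYPB* belongs to a family of close paralogs, and how reads were split among them is uncertain. *EPOR*, the erythropoietin receptor, changed from 28.4 ± 1.12 to 17.9 ± 2.78 CPM (log2 -0.66), and its call, like that of *ZFPM1*, was lost with library totals.

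Heme synthesis, the pathway that supplies globin with its cofactor, was lower at 7 of the 8 enzymes listed. Of these 7, *UROS* (log2 -0.65) lost its call with library totals. *ALAS2*, its first and erythroid-specific enzyme, had a log2 fold change of -2.70, and *UROD*, *FECH* and *CPOX* had -2.25, -1.43 and -1.18. The second enzyme, *ALAD* (chromosome 9, 113386312 to 113401290, minus strand), went the other way. It had 25.7, 28.9 and 22.9 CPM in the untreated libraries and 115, 108 and 104 CPM at 1 µM, with a log2 fold change of 2.08 (SE 0.16, adjusted p = 1.8e-09). The other gene called higher, *HBE1*, rested on few counts (0.170 and 0.491 CPM), 90.0% of its exon bases are shared with another gene, its libraries overlapped, and the call was lost under several alternatives. *HBZ*, embryonic zeta-globin, fell from 1052 ± 57.7 to 84.2 ± 9.66 CPM. The near-identical pair *HBA1* and *HBA2* went from 208 to 63.3 CPM and from 101 to 106 CPM, and how reads were split between them is uncertain. *SLC4A1*, *EPB42* and *HBA2* were not called.

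Megakaryocyte and platelet genes, markers of the sister lineage, moved upward where they could be tested. Of 20 listed genes, 14 passed the filter on low counts, 12 of them called higher and 1 lower, with a median log2 of 1.90. Another 6, among them *PF4*, *PPBP* and *GP9*, had 0 to 6 counts in each group and were not tested, so the list does not stand for a platelet program as a whole. *THBS1*, thrombospondin, a protein of platelet granules, had 15.3, 11.9 and 8.34 CPM in the untreated libraries and 241, 195 and 222 CPM at 1 µM, with a log2 fold change of 4.22 (SE 0.25, adjusted p = 4.3e-11). *ITGB3*, the beta chain of the platelet fibrinogen receptor, had 0.573, 0.270 and 0.0391 CPM in the untreated libraries and 8.73, 6.73 and 9.31 CPM at 1 µM (33.2% of its exon bases are shared with another gene), and its alpha chain *ITGA2B* went from 4.66 ± 0.421 to 25.4 ± 2.09 CPM. *VWF*, von Willebrand factor, had 2 counts in 1 untreated library and 2.77, 2.28 and 4.46 CPM at 1 µM. *TUBB1*, the platelet beta-tubulin, was the exception and fell from 2.23 ± 0.375 to 0.151 ± 0.0199 CPM, with 35.5% of its exon bases under a gene on the opposite strand.

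Defining markers of other cell types were also examined. Of 20 such genes, 15 were tested, 8 of them called higher and 4 lower with a median log2 of 1.46, and the other 5 had at most 5 counts in a group. With at least 10 counts in every library, 8 were tested and the median was 0.17. *COL1A1*, a fibroblast collagen, went from 4.36 ± 0.954 to 398 ± 94.4 CPM, and *CSF1R*, a macrophage receptor, from 0.457 ± 0.400 to 25.9 ± 4.17 CPM. *EPCAM*, an epithelial adhesion gene, fell from 141 ± 9.54 to 20.5 ± 1.87 CPM, and *PTPRC*, the pan-leukocyte CD45, from 57.9 ± 3.64 to 1.83 ± 0.845 CPM. Summed over 15 of the listed markers, the level ran from 145 to 159 CPM in the untreated libraries and from 347 to 536 CPM at 1 µM. Of these 15, 6 were at 0 in untreated cells and 1 (*KRT5*) at 1 µM. Most of the untreated sum was *EPCAM* and most of the treated sum was *COL1A1*. Their part in the other results was not tested.

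**Figure D3:**
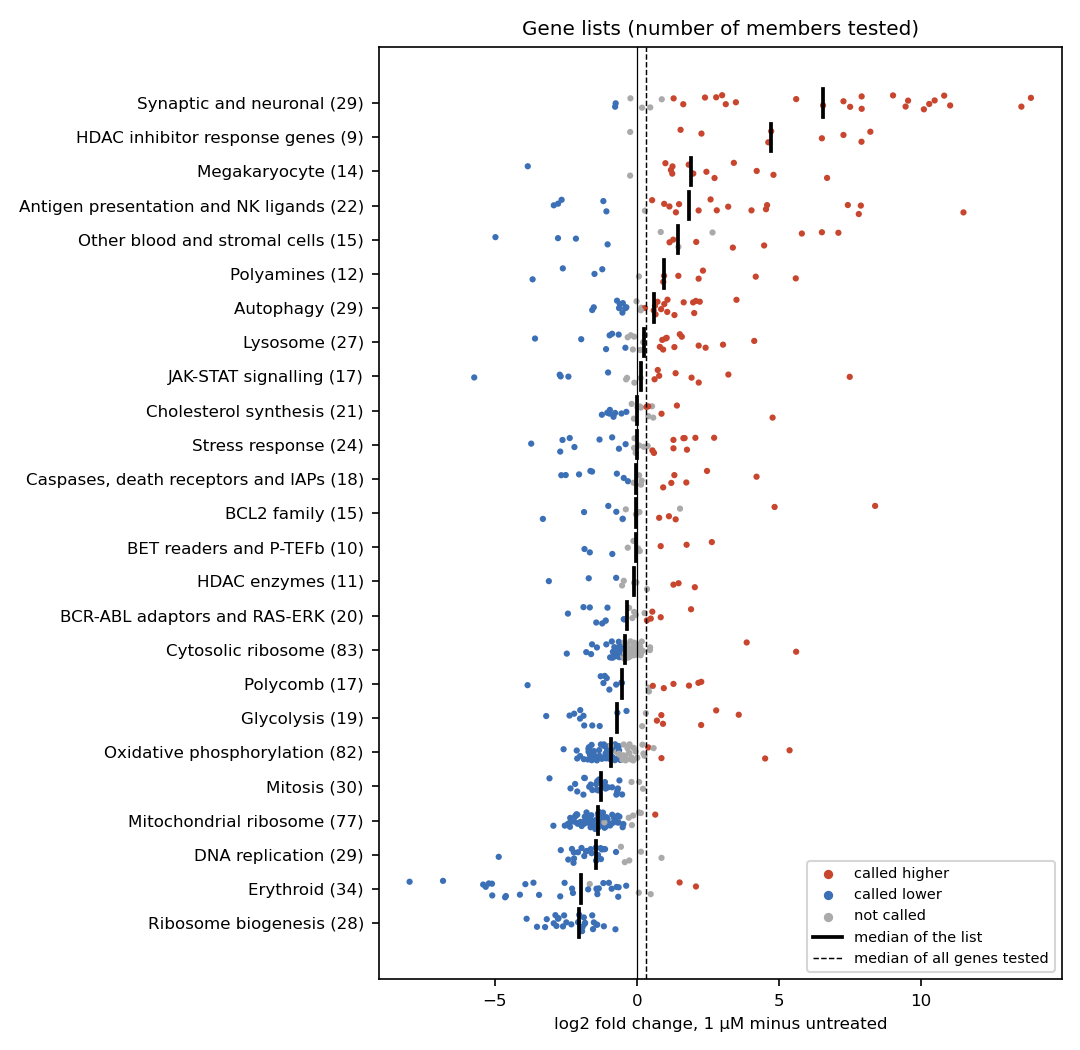
Log2 fold change (1 µM minus untreated, x axis) of the tested members of 25 gene lists, 1 point per gene, colored by call, with a bar at the median of the list and the dashed line at the median of all genes tested. Ribosome biogenesis and erythroid genes lie furthest to the left with medians of -2.05 and -1.98, and synaptic genes furthest to the right, where only tested members are drawn.

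Ribosome biogenesis was the list with the lowest median, just below the erythroid genes. That order turned under some alternatives: with at least 10 counts in every library the 2 medians were -1.78 and -1.98. The ribosome biogenesis list covers RNA polymerase I, which transcribes ribosomal RNA, and the nucleolar factors that cut, modify and fold it. All 28 members were called lower, with a median log2 of -2.05, and 27 or 28 were called lower under every scaling, filter and left-out library tried. *UTP20*, a component of the small subunit processome (chromosome 12, 101280105 to 101386618, plus strand), had 148, 169 and 149.8 CPM in the untreated libraries and 11.3, 8.91 and 11.4 CPM at 1 µM, with a log2 fold change of -3.88 (SE 0.26, adjusted p = 5.6e-10). *NCL*, nucleolin, had 2313, 2616 and 2501 CPM in the untreated libraries and 514, 458 and 528 CPM at 1 µM. *WDR43*, *UTP4*, *GNL3* and *DKC1* had log2 fold changes of -3.52, -3.23, -3.17 and -2.78, the polymerase I factor *UBTF* had -2.56, and the smallest loss was that of *NOC2L* (-0.76).

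Ribosomal protein genes had smaller median losses. Of 77 mitochondrial ribosomal protein genes tested (of 78), 70 were called lower and 1 higher, with a median of -1.37. *MRPL3* went from 221 ± 15.1 to 28.7 ± 1.41 CPM and the single gene called higher, *MRPL10*, from 113 ± 5.05 to 176 ± 12.6 CPM. Of 83 cytosolic ribosomal protein genes tested (of 85), 34 were called lower and 2 higher, with a median of -0.41. That list depended on the scaling and on the libraries in the fit. With library totals 18 were lower and 6 higher, and the median was -0.06. With only the groups compared in the fit, 50 were lower and 4 higher, and without replicate 3 at 0.5 µM 47 and 3. Replicate 2 at 1 µM carried more of these transcripts than the other libraries compared. The 2 called higher, *RPL3L* and *RPL10L*, encode tissue-restricted variants of ribosomal proteins. Of 82 nuclear genes of oxidative phosphorylation tested (of 88), 54 were called lower and 4 higher, with a median of -0.92, and *COX7B2* and *COX6B2*, isoforms known from testis, were 2 of the 4 that rose.

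Polyamines are small cations that growing cells need. Of 12 genes of their synthesis, breakdown, transport and control, 7 were called higher and 4 lower, with a median log2 of 0.94. *SRM*, spermidine synthase (chromosome 1, 11054584 to 11060020, minus strand), had 702, 669.8 and 829 CPM in the untreated libraries and 58.3, 53.1 and 61.1 CPM at 1 µM, with a log2 fold change of -3.67 (SE 0.28, adjusted p = 2.4e-09). Spermine synthase *SMS* fell from 334 ± 28.2 to 54.7 ± 1.96 CPM and *AMD1*, which supplies the aminopropyl donor, from 335 ± 27.5 to 119 ± 10.8 CPM. *SAT1*, the acetyltransferase that starts polyamine breakdown (chromosome X, 23783173 to 23786210, plus strand), had 15.4, 19.5 and 13.0 CPM in the untreated libraries and 314, 299 and 257 CPM at 1 µM, with a log2 fold change of 4.18 (SE 0.26, adjusted p = 1.9e-10). The oxidases *SMOX* and *PAOX* were called higher (log2 2.32 and 2.17, the latter with 61.0% of its exon bases shared with another gene), as were *AZIN2*, an inhibitor of antizyme (log2 5.59), and *ODC1*, the first enzyme of synthesis, which went from 1242 ± 18.9 to 2409 ± 384 CPM.

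The E-box CACGTG is a known binding site of basic helix-loop-helix factors such as TFEB, and promoters with it went both ways. It occurred in 10 of the 24 ribosome biogenesis promoters matched (41.7%), in 9 of 19 lysosomal promoters (47.4%) and in 7.43% of all 27305. *SRM*, which fell, and *NEU1*, a lysosomal sialidase that rose, each held 1 in the 250 bases before the start, 199 and 126 bases before it, in capitals here (RefSeq, GRCh38.p14, both on the minus strand, chr1:11060019-11060268 and chr6:31862822-31863071).
SRM: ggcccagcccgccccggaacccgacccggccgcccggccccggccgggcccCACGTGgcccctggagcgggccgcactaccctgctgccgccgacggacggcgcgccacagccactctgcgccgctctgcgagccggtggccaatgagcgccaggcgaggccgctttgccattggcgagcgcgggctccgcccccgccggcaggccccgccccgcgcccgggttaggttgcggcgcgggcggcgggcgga
NEU1: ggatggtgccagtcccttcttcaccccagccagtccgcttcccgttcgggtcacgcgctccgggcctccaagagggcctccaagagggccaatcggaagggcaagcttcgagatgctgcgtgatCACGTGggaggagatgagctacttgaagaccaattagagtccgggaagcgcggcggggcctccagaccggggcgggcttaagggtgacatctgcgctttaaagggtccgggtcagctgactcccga
Among genes tested, 9.41% of 14021 promoters held the E-box, among genes over 2-fold higher 7.15% of 4520 and among genes over 2-fold lower 12.7% of 2958.

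Of 27 lysosomal genes, 12 (44.4%) were called higher and 7 (25.9%) lower, with a median log2 of 0.24, close to the 38.8%, 27.5% and 0.32 over all genes tested. With library totals the counts were 16 and 5. *NEU1* (chromosome 6, 31857659 to 31862905, minus strand) had 62.9, 56.1 and 56.2 CPM in the untreated libraries and 1072, 1155 and 839 CPM at 1 µM, with a log2 fold change of 4.13 (SE 0.25, adjusted p = 5.5e-11). *PSAP*, the precursor of the saposins that aid lipid breakdown, went from 607 ± 20.9 to 1814 ± 152 CPM, the membrane protein *LAMP2* from 335 ± 18.7 to 953 ± 57.2 CPM and the cholesterol carrier *NPC2* from 6.16 ± 1.69 to 50.3 ± 5.00 CPM. *CTSS*, a cysteine protease of antigen-presenting cells, fell from 15.5 ± 0.440 to 1.28 ± 0.0650 CPM, and *CTSL* and *CTSZ* were called lower too (log2 -0.96 and -1.96, the latter with 31.7% of its exon bases under a gene on the opposite strand). Autophagy delivers cargo to the lysosome. Of 29 genes tested, 16 were called higher and 10 lower, with a median log2 of 0.59. The cargo receptors *OPTN* (log2 3.50), *SQSTM1* (2.07), *CALCOCO2* (0.96) and *NBR1* (0.63) were called higher, as was the initiating kinase *ULK1* (1.32). The conjugation genes *ATG3*, *ATG5*, *ATG7*, *ATG12* and *ATG16L1* were called lower, with log2 fold changes of -1.57, -0.70, -0.51, -0.41 and -0.50. With library totals 19 genes of this list were higher and 2 lower, the latter *ATG3* and *ATG5*, and the calls of *ATG7*, *ATG12* and *ATG16L1* were lost.

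Genes of DNA replication fell broadly. Of 29 tested, 24 were called lower and 0 higher, with a median log2 of -1.45, and with library totals 23 were called lower and 2 higher. All 6 subunits of the MCM helicase, which unwinds DNA at the fork, were among them, from -1.76 for *MCM3* to -2.42 for *MCM6* on the log2 scale. *MCM6* (chromosome 2, 135839626 to 135876443, minus strand) had 382, 467 and 439 CPM in the untreated libraries and 85.3, 71.8 and 83.9 CPM at 1 µM. *TYMS*, thymidylate synthase, had the largest change of the list, from 81.8 ± 6.02 to 2.80 ± 0.805 CPM, with 47.9% of its exon bases under a gene on the opposite strand. *RFC3*, of the clamp loader, fell from 103 ± 7.22 to 16.0 ± 1.70 CPM. The genes not called were *CDT1*, *GINS4*, *LIG1*, *RRM2* and *TK1*, and *TK1*, thymidine kinase, had 234, 210.5 and 216 CPM in the untreated libraries and 366, 484 and 352 CPM at 1 µM (log2 0.87, adjusted p = 0.12). Of the 25 promoters matched, 13 (52.0%) held GCGGGAA, part of the E2F site, against 6.56% of all promoters and 9.47% of those of genes tested.

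Mitotic genes were also lower, by somewhat less. Of 30 tested, 26 were called lower and 0 higher, with a median of -1.26, and with library totals 22 and 1. *MAD2L1*, a spindle checkpoint protein, had 184, 204 and 189 CPM in the untreated libraries and 22.5, 23.1 and 22.6 CPM at 1 µM. The kinases *AURKA* and *PLK1* fell from 105 ± 7.85 to 20.7 ± 0.850 CPM and from 346 ± 33.7 to 76.6 ± 9.92 CPM, and the cyclins *CCNB1* and *CCNB2* from 357 ± 26.6 to 83.2 ± 4.44 CPM and from 165 ± 13.0 to 46.2 ± 2.85 CPM. *CDC20*, the activator of the anaphase-promoting complex, had 276, 288 and 318 CPM in the untreated libraries and 266, 238 and 269 CPM at 1 µM, and together with *AURKB*, *CDC25C* and *NEK2* it was not called. *TOP2A* was called lower with a log2 fold change of -0.62, and that call was lost with library totals.

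*CCNB2* is shown as the example of a mitotic promoter. Its 250 bases before the start held 4 CCAAT boxes (244, 120, 87 and 54 bases before the start) and 1 cell cycle homology element TTTGAA, in capitals (RefSeq, GRCh38.p14, plus strand, chr15:59104896-59105145).
CCNB2: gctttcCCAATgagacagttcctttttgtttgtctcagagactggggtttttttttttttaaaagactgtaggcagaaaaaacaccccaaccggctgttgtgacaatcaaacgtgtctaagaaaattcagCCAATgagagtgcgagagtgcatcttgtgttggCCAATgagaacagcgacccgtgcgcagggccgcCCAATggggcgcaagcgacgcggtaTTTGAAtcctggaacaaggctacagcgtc
TTTGAA was found on either strand in 18 of the 26 mitotic promoters matched (69.2%), in 15.4% of all 27305 and in 10.6% of those of genes tested, and CCAAT in 20 (76.9%), 35.7% and 36.3%. Over the 2958 promoters of all genes called over 2-fold lower, the shares were 12.4% and 34.6%.

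Opposite to the cell cycle lists stood *CDKN1A* (chromosome 6, 36676460 to 36687337, plus strand), which encodes the cyclin-dependent kinase inhibitor p21. Its level was 2.86, 3.82 and 5.01 CPM in the untreated libraries and 340.5, 413 and 314 CPM at 1 µM, with a log2 fold change of 6.51 (SE 0.25, adjusted p = 1.9e-13). The 250 bases before its RefSeq start, which lies inside the gene span given above, held 4 GC boxes (GGGCGG), the element bound by SP1-type factors. They lie 104, 94, 45 and 40 bases before that start, with the last 2 sharing 1 base (RefSeq, GRCh38.p14, plus strand, chr6:36678464-36678713).
CDKN1A: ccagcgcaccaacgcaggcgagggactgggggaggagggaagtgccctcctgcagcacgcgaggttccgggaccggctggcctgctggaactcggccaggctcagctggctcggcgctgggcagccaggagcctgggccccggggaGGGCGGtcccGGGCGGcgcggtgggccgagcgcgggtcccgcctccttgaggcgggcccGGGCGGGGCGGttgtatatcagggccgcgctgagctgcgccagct
The GC box on either strand was common, in 44.6% of all 27305 promoters, in 64.9% of the 14021 of genes tested, in 62.6% of those of genes over 2-fold higher and in 65.6% of those over 2-fold lower.

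Other genes that HDAC inhibitors are known to induce moved with it. Of 10 listed, 9 were tested, 8 of them called higher and 0 lower, with a median log2 of 4.73. *CLU*, clusterin, a secreted chaperone, had 2.86, 0.966 and 2.97 CPM in the untreated libraries and 711, 611 and 699.8 CPM at 1 µM, with a log2 fold change of 8.22 (SE 0.33, adjusted p = 3.3e-13). *DHRS2*, a dehydrogenase first found as an inhibitor-induced gene, had 3.31, 2.32 and 1.60 CPM in the untreated libraries and 632, 549.9 and 550.1 CPM at 1 µM. *TUBB3*, neuronal beta-tubulin, had 0.327, 0.193 and 0.274 CPM in the untreated libraries and 47.3, 44.7 and 32.0 CPM at 1 µM. The actin-severing gelsolin *GSN* went from 10.4 ± 0.516 to 275 ± 6.29 CPM and the thioredoxin-binding *TXNIP* from 246 ± 23.7 to 1187 ± 26.2 CPM. The histone gene *H2BC12* was not called, at 865 ± 85.6 to 734 ± 118 CPM.

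**Figure D4:**
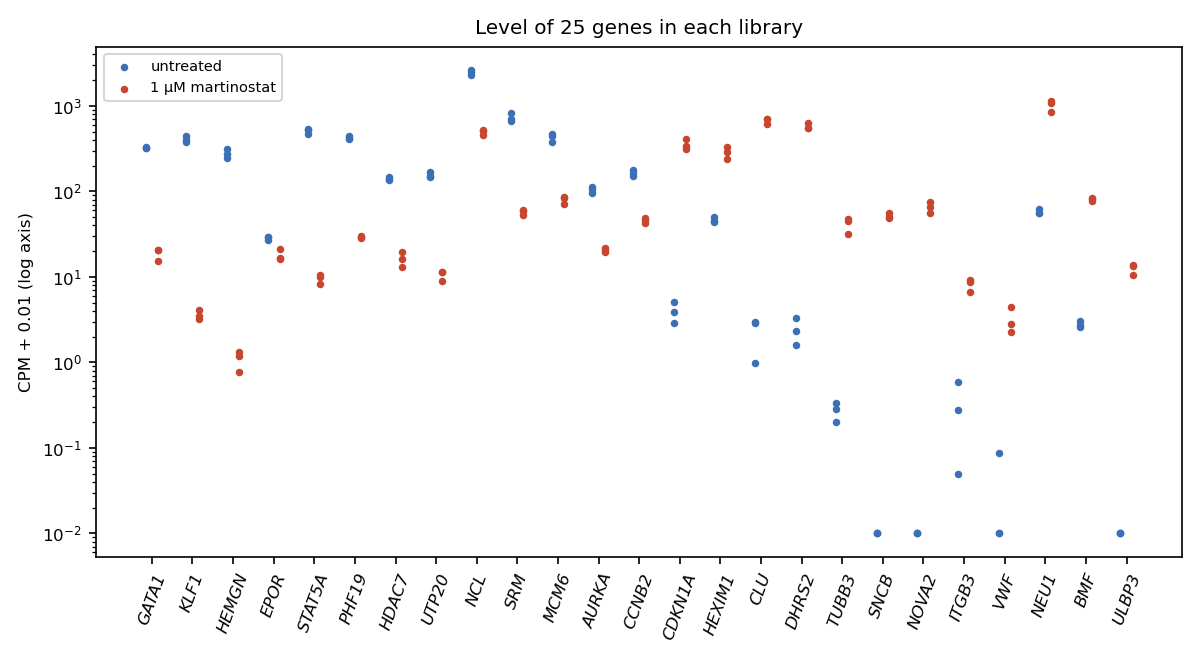
Level of 25 genes (CPM plus 0.01, y axis, log scale) in each of the 3 untreated (blue) and 3 treated libraries (red), 1 point per library. In every gene drawn the 2 groups lie apart, with erythroid, signaling, nucleolar and cell cycle genes falling on the left and induced genes rising on the right, and points at 0.01 are libraries with no count.

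The targets themselves changed unequally. Of 11 HDAC genes, 3 were called higher and 3 lower, with a median log2 of -0.10, and with library totals 5 were higher and 3 lower with a median of 0.26. *HDAC7*, a class IIa enzyme (chromosome 12, 47782722 to 47833132, minus strand), had 139, 135 and 147 CPM in the untreated libraries and 13.2, 16.0 and 19.7 CPM at 1 µM, with a log2 fold change of -3.10 (SE 0.18, adjusted p = 2.8e-11). *HDAC2*, of class I, had 319, 336 and 345 CPM in the untreated libraries and 100.5, 101 and 107 CPM at 1 µM, and *HDAC4* was called lower as well (log2 -0.73). *HDAC11*, of class IV, had 6.99, 6.18 and 5.99 CPM in the untreated libraries and 27.4, 26.5 and 24.8 CPM at 1 µM, with *HDAC5* and the tubulin deacetylase *HDAC6* called higher too (log2 1.28 and 1.46). *HDAC1*, at 251 ± 13.3 to 321 ± 5.38 CPM, was not called (log2 0.36, adjusted p = 0.08), but it was called higher under 8 of the 20 alternatives. *HDAC3* and *HDAC8* had overlapping libraries and log2 fold changes of -0.02 and -0.10, and with library totals *HDAC3* was called higher (log2 0.33).

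The bromodomain genes *BRD2* and *BRD3* were not called, with log2 fold changes of 0.10 and 0.04, but with library totals both were called higher (0.45 and 0.40). Over the 10 genes of bromodomain readers and P-TEFb, 3 were called higher and 3 lower, with a median of -0.04, and with library totals 5 and 3 with a median of 0.31. Among regulators of the elongation kinase P-TEFb, *HEXIM1*, its inhibitor and a known pharmacodynamic marker of bromodomain inhibition (chromosome 17, 45148475 to 45152099, plus strand), had 44.8, 49.8 and 43.6 CPM in the untreated libraries and 331, 240.1 and 287 CPM at 1 µM, with a log2 fold change of 2.64 (SE 0.15, adjusted p = 2.8e-11). The kinase subunit *CDK9* went from 68.3 ± 2.02 to 122 ± 8.00 CPM, whereas *CCNT2*, *MEPCE* and *LARP7*, which belong to the active or the stored form of the kinase, were called lower (log2 -1.66, -1.85 and -0.87), with 67.3% of the exon bases of *MEPCE* shared with another gene. Polycomb genes, which keep developmental genes silent, went both ways within each complex. In the methyltransferase complex, *EZH2*, *EED* and *SUZ12* were called lower (log2 -0.97, -1.18 and -0.53), and its accessory protein *PHF19* (chromosome 9, 120855651 to 120894896, minus strand) had 406, 419 and 447 CPM in the untreated libraries and 28.9, 29.2 and 30.2 CPM at 1 µM, with a log2 fold change of -3.85 (SE 0.15, adjusted p = 2.2e-13). Another accessory protein, *JARID2*, went the other way, with 127, 123 and 131 CPM in the untreated libraries and 329, 264 and 334 CPM at 1 µM and a log2 fold change of 1.29. The chromodomain readers *CBX2*, *CBX7* and *CBX8* of the other complex and its subunit *PHC1* were called higher (log2 0.56, 2.26, 0.94 and 1.83), while its members *PCGF2* and *PHC2* were called lower (-1.06 and -1.28). Of the 17 genes, 6 were called higher and 9 lower, with a median of -0.53, and with library totals the order turned to 7 higher and 6 lower with a median of -0.17, where the call of *SUZ12* was lost.

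Synaptic and neuronal genes had the highest median of any list, 6.55 on the log2 scale. Of 35 listed genes, 29 were tested, 23 of them called higher and 2 lower. The other 6, among them *NEUROD1*, had 0 counts in the untreated and 2 to 31 in the treated group. Of the 35, 17 had 0 counts in untreated cells and could pass the filter only through the treated libraries, so the counts of this list describe its tested members alone. With at least 10 counts in every library, 12 were tested, 9 of them called higher and 2 lower, and the median was 2.12, below the 4.95 of the HDAC inhibitor response genes under that filter. *L1CAM*, a neural adhesion molecule, had 0.164, 0.0772 and 0.0783 CPM in the untreated libraries and 151, 112 and 149 CPM at 1 µM. *MAP2*, a dendritic microtubule protein, had 0 counts in untreated cells and 8.62, 9.74 and 9.00 CPM at 1 µM, at least 231-fold higher. *SYT11* went from 0.0779 ± 0.0783 to 58.6 ± 2.57 CPM and *SYN1*, synapsin, from 0.828 ± 0.142 to 78.2 ± 14.6 CPM. *MAPT*, which encodes tau, was present in untreated cells and went from 10.00 ± 0.399 to 112 ± 10.1 CPM. *REST*, the repressor that silences such genes outside neurons, had 62.6, 53.4 and 49.97 CPM in the untreated libraries and 32.7, 31.4 and 33.2 CPM at 1 µM and was called lower (log2 -0.77), a call that was lost with library totals. Its corepressor *RCOR1* was not called (log2 0.18).

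In the signaling of the leukemia, *STAT5A*, the transcription factor that BCR-ABL activates, fell most (chromosome 17, 42287547 to 42311943, plus strand). It had 468, 533 and 529 CPM in the untreated libraries and 9.94, 8.29 and 10.6 CPM at 1 µM, with a log2 fold change of -5.73 (SE 0.18, adjusted p = 1.7e-14). Its neighbor *STAT5B* had 242, 289.7 and 288 CPM in the untreated libraries and 42.1, 38.3 and 44.1 CPM at 1 µM, and *JAK2* and *STAT6* were called lower too (log2 -2.41 and -2.68). Not all of the family followed, since *STAT2* and *STAT3* were called higher (log2 1.92 and 0.78). *JAK3*, normally a kinase of lymphocytes, had 0.164, 0.0772 and 0.0391 CPM in the untreated libraries and 19.1, 17.5 and 15.6 CPM at 1 µM, and the feedback inhibitor *SOCS3* had 27.3, 27.0 and 30.02 CPM in the untreated libraries and 257, 304 and 224 CPM at 1 µM. Of 17 genes tested in this pathway, 8 were called higher and 5 lower, with a median log2 of 0.13, while *CISH* and *PIM2*, classical STAT5 targets, were not called (log2 -0.35 and -0.09) and *PIM1* was called lower (-1.02).

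The genes that make up the fusion changed little. *BCR* went from 443 ± 37.7 to 322 ± 65.0 CPM (log2 -0.46, adjusted p = 0.031) and *ABL1* from 590.3 ± 50.1 to 487 ± 78.8 CPM (log2 -0.28, adjusted p = 0.17), and counts per gene cannot separate the fusion from the normal copies. *CRKL*, the main adaptor substrate of the kinase, had 1191, 1220.0 and 1221 CPM in the untreated libraries and 622, 529 and 618 CPM at 1 µM and was called lower (log2 -1.04). Below it in the RAS-ERK pathway, the feedback genes *SPRY2*, *SPRY4*, *SPRED1* and *SPRED2* were called lower (log2 -2.43, -1.22, -1.43 and -1.10). *EGR1*, an immediate early gene, was called higher and went from 162 ± 5.60 to 606 ± 89.1 CPM. Over the 20 genes, 5 were called higher and 9 lower, with a median of -0.36, and with library totals 6 and 7, where the call of *BCR* was lost.

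Apoptosis genes moved in both directions. In the BCL2 family, 5 of 15 tested were called higher and 5 lower, with a median log2 of -0.04, and with library totals 6 and 3 with a median of 0.32. The pro-death gene *BMF* had 2.62, 3.05 and 2.74 CPM in the untreated libraries and 83.1, 77.0 and 82.0 CPM at 1 µM, with a log2 fold change of 4.85 (SE 0.18, adjusted p = 9.2e-14). *BIK*, another one, had 1 count in the 3 untreated libraries and 5.64, 7.43 and 4.50 CPM at 1 µM. *BID* fell from 106 ± 6.74 to 10.6 ± 3.24 CPM. Among the pro-survival members, *MCL1* had 323, 340.2 and 346 CPM in the untreated libraries and 893, 845 and 857 CPM at 1 µM, while *BCL2L1* fell from 132 ± 4.42 to 36.2 ± 2.52 CPM, with 41.3% of its exon bases under a gene on the opposite strand. Of 18 caspase, death receptor and IAP genes, 6 were called higher and 8 lower, with a median of -0.02, and with library totals the order turned to 8 and 6 with a median of 0.33. The TRAIL receptors diverged, with *TNFRSF10B* going from 47.0 ± 3.49 to 259.7 ± 26.1 CPM and *TNFRSF10A* from 47.9 ± 1.96 to 7.55 ± 0.461 CPM. *CFLAR*, which blocks caspase-8, fell from 83.2 ± 2.64 to 14.6 ± 2.63 CPM, *APAF1* and *CASP9* of the mitochondrial path were called higher (log2 1.74 and 1.32), and cytochrome c (*CYCS*) was called lower (-1.64).

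Surface genes by which cytotoxic lymphocytes see a cell were mostly higher. Of 22 tested, 16 were called higher and 5 lower, with a median log2 of 1.83. Of the 22, 3 had 0 counts in untreated cells and could pass the filter only through treated libraries. With at least 10 counts in every library, 17 were tested, 11 of them called higher and 5 lower, with a median of 1.41. *ULBP3*, a ligand of the activating receptor NKG2D on natural killer cells (chromosome 6, 150061053 to 150069121, minus strand), had 0 counts in untreated cells and 13.9, 10.6 and 13.3 CPM at 1 µM, at least 319-fold higher. *ULBP2* had 0.0818, 0.0772 and 0.157 CPM in the untreated libraries and 26.6, 28.2 and 22.8 CPM at 1 µM, and *ULBP1*, *MICA* and *MICB* were called higher as well (log2 4.03, 1.48 and 0.53). *NCR3LG1*, which encodes B7-H6, the ligand of another activating receptor, fell from 111 ± 8.06 to 14.6 ± 2.09 CPM. Of the MHC class I genes, *HLA-B* went from 2.49 ± 0.527 to 59.6 ± 8.12 CPM and *HLA-E* from 29.2 ± 1.93 to 270.4 ± 33.8 CPM. HLA genes are polymorphic and share sequence, so their counts are uncertain. The peptide transporter *TAP1* was called higher and its partner *TAP2* lower (log2 2.17 and -1.18), and the peptide-trimming *ERAP1* was called lower (-2.65).

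Of 19 glycolytic genes, 6 were called higher and 11 lower, with a median of -0.69, and with library totals 8 and 9 with a median of -0.34. *ENO1* (chromosome 1, 8861000 to 8879190, minus strand) had 5376, 5651 and 6165 CPM in the untreated libraries and 1083, 1085 and 1151 CPM at 1 µM, with a log2 fold change of -2.37 (SE 0.21, adjusted p = 9.1e-09), and its neuronal counterpart *ENO2* went from 5.82 ± 0.771 to 40.3 ± 2.07 CPM. *HK2* and *HK1*, the hexokinases, fell from 216 ± 12.7 to 23.6 ± 2.88 CPM and from 1332 ± 153 to 362 ± 53.2 CPM. The glucose transporter *SLC2A1* fell from 322 ± 24.2 to 80.4 ± 4.50 CPM while *SLC2A3* went from 121 ± 14.3 to 581 ± 47.5 CPM. *ALDOC*, the brain aldolase, went from 11.2 ± 1.96 to 134 ± 11.3 CPM, *LDHA* fell from 1823 ± 217 to 394 ± 15.5 CPM, and *GAPDH*, often used as a reference gene, was not called (2185 ± 71.0 to 2482 ± 149.9 CPM), although it was with library totals. In cholesterol synthesis, 5 of 21 were called higher and 8 lower, with a median of 0.02. With library totals the order turned to 9 higher and 5 lower, with a median of 0.37, and with factors from genes of at least 10 CPM to 11 and 4. Here *TM7SF2*, a sterol reductase, went from 7.04 ± 1.08 to 193 ± 37.2 CPM. In the stress list, 9 of 24 tested were called higher and 9 lower, with a median of 0.02, and with library totals 11 and 7 with a median of 0.37. *ATF4*, the hub of the integrated stress response, fell from 382 ± 37.9 to 153 ± 39.6 CPM, and *TRIB3* and the cystine transporter *SLC7A11*, which it is known to induce, fell from 164 ± 10.9 to 25.2 ± 3.75 CPM and from 23.1 ± 2.65 to 1.75 ± 0.303 CPM, while *ATF3* went from 5.22 ± 0.332 to 34.3 ± 4.52 CPM.

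In each of 5 lists 1 further member had too few counts for a test: *OSM*, *BCL2A1*, *FAS*, *MAP1LC3A* and *HMOX1*.

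The other doses place these values. Between 0.5 and 1 µM no gene was called (0 of 23711), 372 had an unadjusted p under 0.05, and DESeq2 called 0 with 547 at an unadjusted p under 0.05. Between 0.15 and 1 µM, 10562 genes (44.5%) were called, 5090 higher and 5472 lower at 1 µM, and that comparison uses the same 1 µM libraries as the one with untreated cells. Of the 34 erythroid genes 28 were lower at 1 µM than at 0.15 µM, and of the 28 ribosome biogenesis genes 23, against 13 of the 30 mitotic and 15 of the 29 replication genes. *KLF1* had group means of 185, 49.3 and 2.84 CPM at 0.15, 0.25 and 0.5 µM and *STAT5A* of 247, 77.9 and 9.63 CPM. Among induced genes, *SNCB* was already at 43.1 CPM at 0.15 µM, whereas *NEU1* had 87.7, 139 and 1048 CPM and *TUBB3* 1.53, 3.22 and 35.7 CPM at these doses.

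**Figure D5:**
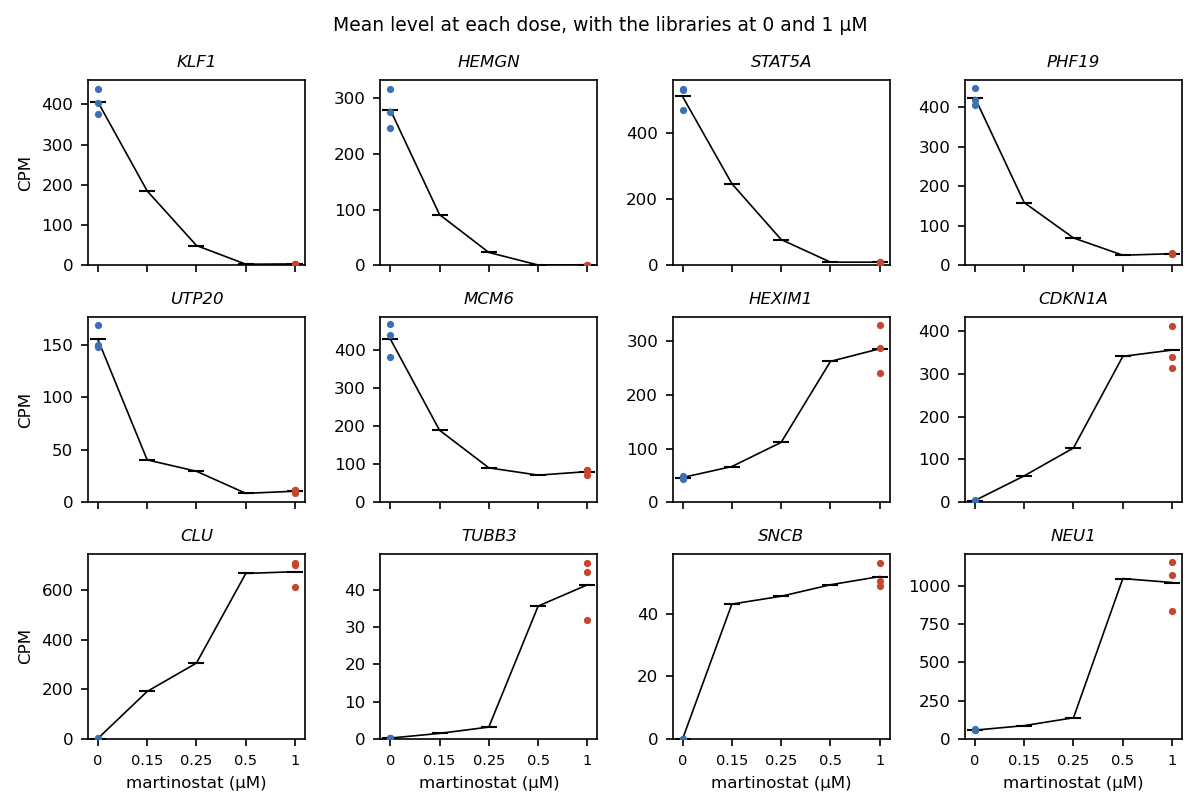
Group mean level (CPM, linear y axis from 0) of 12 genes in untreated cells and at each of the 4 doses of martinostat in µM (x axis, equal steps), with the single untreated (blue) and 1 µM libraries (red) as points. All 12 genes are close to their 1 µM level at 0.5 µM, and *SNCB* is at 0.15 µM already.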

How the data were processed

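Per the labels and the methods of the study, the authors enriched poly(A) RNA, used a directional library kit and paired-end sequencing, and aligned the reads to hg38. The submitters' processing notes name Trim Galore 0.6.10, HISAT2 2.2.1, SAMtools 1.21 and featureCounts 1.5.3, with GENCODE 38 as the annotation in the methods. The deposited table held raw counts of 60649 genes, with no normalization, and whether counting used the strand is not given in the sources used here. The deposited FPKM tables were not used.

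From the counts, genes were filtered with filterByExpr (23711 left) and libraries were scaled with TMM factors (trimmed mean of M values). A robust quasi-likelihood fit of edgeR 4.0.16 in R 4.3.3 took all 15 libraries, which then contribute to 1 estimate of the spread, with the group as its only term. Scaling factors were 0.784 to 0.828 for the untreated and 1.02 to 1.03 for the 1 µM libraries, the biological coefficient of variation was 0.228, and 10 residual degrees of freedom remained. The adjusted p-values are Benjamini-Hochberg values over all genes tested, and values after ± are SD over 3 libraries. The study itself used DESeq2, here an alternative (1.42.0). CPM use the scaled library sizes. The fit was also run on simulated counts in which few genes changed, equally in both directions. That setting differs from these data, so it does not test the scaling or the filter here.

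Symbols were found for 60507 identifiers (99.8%). Positions, exon overlaps and symbols came from GENCODE 44 on hg38, with an unchanged version for 54131 identifiers. Promoters and the microRNA came from RefSeq, matched by symbol. RefSeq starts can differ from the ends of the GENCODE gene spans. The promoter stretches of *CDKN1A*, *SRM* and *NEU1* therefore lie partly or wholly inside these spans.

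Members and gene lists were chosen with earlier results of these data known. Lists are described by their counts and medians beside those of all genes, without a test of the list. Named genes were, per list, the 3 called genes with the largest change, the 2 with the highest level and the largest change in the opposite direction, then the 8 protein-coding and 4 lncRNA genes at each end of the ranking (at least 10 CPM in the higher group, no overlap) and the 5 genes with the largest gain and loss in share of counts. Further list members are named to describe roles and were chosen after their values were seen. Some list members are counted but not reported by name here. Same-numbered replicates of the 2 groups correlated in their deviations from the group means with -0.16, -0.08 and 0.18, so the numbers were not taken as pairs.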

Additional observations from a re-analysis of the deposited data

How the results depend on the processing

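The alternatives kept the direction and the call of most named genes that they tested. Of 129 genes chosen by rule and followed over 20 alternatives, between 0 and 3 changed direction in any one. Factors from genes of at least 10 CPM gave 2844 genes over 2-fold lower and left 9 of 25 lists with a median below 0, against 14. A stricter filter (10 or more counts in each library), which tested 14096 genes, called 4998 higher and 4692 lower. Over 2-fold, it called 3421 higher and 2679 lower. Not all of the 129 genes could be tested this way. Those without a count in untreated cells, such as *NOVA2*, *SNCB*, *ALPG* and *MIR7-3HG*, dropped out, so their changes were not checked by it. Of the genes that remained, 92 kept direction and call, 3 changed direction, 3 gained a call and 1 lost it. Leaving out 1 of the 6 libraries gave 8786 to 8986 genes called higher, 6059 to 6170 lower, 7741 to 7926 over 2-fold higher, 4174 to 4289 over 2-fold lower, 8893 to 10458 between 0.15 and 1 µM, 0 between 0.5 and 1 µM and 12 to 16 lists below 0.

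A fit with the replicate number as a block called 9251 genes higher and 6557 lower. The labels do not say whether the numbers pair the samples, and 3 libraries per group are too few to decide it. The block changed no call of the 129 genes. Among all list members 6 calls were lost and 8 gained, each with an adjusted p of 0.034 to 0.060 in that fit, and of the genes named in the text only *HBE1* lost its call (adjusted p = 0.060).

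The genes that changed direction were not called in the comparison as reported. Leaving out 1 library gave *OAZ1* values between -0.10 and 0.17, the lowest when the second treated library was missing. With library totals, factors from genes of at least 10 CPM and the stricter filter in turn, *H2BC12* went to 0.12, 0.14 and 0.038, *NBEAL2* to 0.11, 0.14 and 0.034 and *HSP90B1* to 0.26, 0.28 and 0.18. The call of *TOP2A* was lost under all 3 of these and that of *REST* under the first 2. Of further list members named, *ATG7*, *ATG12*, *ATG16L1*, *BCR*, *EPOR*, *SUZ12*, *UROS* and *ZFPM1* lost their calls under both of these scalings and *NOC2L* under the second. By contrast, *BRD2*, *GAPDH*, *GINS4*, *HDAC1*, *HDAC3*, *NEK2*, *RCOR1*, *SLC4A1* and *TK1* were called higher under both and *BRD3* under the first. The cause was not tested.

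Genes with few counts limit the precision: untreated levels below about 0.1 CPM rest on a handful of counts, and folds against them depend on the prior count of the fit.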

Other observations

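The share of genes called higher varied between chromosomes. It was 47.2% of the 1686 genes tested on chromosome 19, with a median log2 fold change of 0.65, against 38.8% and 0.32 over all genes, and it was 33.1% to 42.2% on the other autosomes. Of 69 transcribed unitary pseudogenes tested, 35 were called higher and 14 lower, and of 57 small nucleolar RNA genes 6 and 13. Of 1395 processed pseudogenes, 254 were called higher and 294 lower, and their reads can be shared with the parent genes. The number of genes that took the first 50% of the counts was 932 to 967 in the untreated libraries and 877 to 944 at 1 µM, while the 10 most abundant genes took 4.54% to 4.80% and 7.75% to 8.36%. No group held more than 3 libraries, so single libraries were not screened for outlying values.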
